A study of Mus musculus with 17 samples.

Results

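Early innate lymphoid progenitors (EILP), sorted from mouse bone marrow, were set against early T cell progenitors (ETP), sorted from thymus, on 1 EILP array and 2 ETP arrays of the 17 arrays in the series. Every gene that the array annotation names by a single symbol was included, read from the probe set with the highest mean, which gave 22180 genes. The other 14 arrays hold 2 arrays each of CLP, HSC, NK cells, LMPP, flt3- CMP and flt3+ CMP from marrow and of DN3 cells from thymus. HSC are haematopoietic stem cells, LMPP lymphoid-primed multipotent progenitors, CMP and CLP common myeloid and common lymphoid progenitors, and DN3 a later thymocyte stage that follows ETP. All 9 populations came from the same kind of animal: lethally irradiated (900 rads) B6 CD45.1 mice that had received by vein the marrow of donors carrying a TCF-1 GFP reporter and were used 12 weeks later. Cells of these chimeras were pooled to reach enough RNA. The labels give no age, no sex and no sort markers, and whether recipient cells were separated from donor cells is not given in the sources used here. Nothing states that replicate arrays came from separate pools, so the p-values measure the spread between these arrays, which may be technical. EILP has no replicate, and its spread was taken from the 8 populations with 2 arrays.

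EILP are marrow progenitors known to give rise to innate lymphoid cells, which include NK cells and the helper-like ILC and act without rearranged antigen receptors. ETP are the earliest progenitors of the thymus, where Notch ligands on the epithelium activate Notch1: the receptor is cut, its intracellular part joins RBPJ and Mastermind-like proteins on DNA, and genes such as Hes1 are switched on. TCF-1, Gata3 and later Bcl11b then set up the T cell programme, while innate lymphoid fate depends on Id2, which blocks E proteins, and on Nfil3, Tox and Zbtb16. Both populations are known to use TCF-1, whose gene Tcf7 was not analysed here.

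Values are log2 expression, so 1 unit is a 2-fold difference, and the median of all values, 4.54, serves as a guide to what is dim. Array medians lay between 4.45 and 4.62, and the 2 ETP arrays correlated at r = 0.9734 across genes, which are not independent replicates. The median SE of the difference between EILP and ETP was 0.24. Calls required an adjusted p under 0.05 (limma, Benjamini-Hochberg over all genes). Markers of the labels were as follows: Kit, a receptor of early progenitors, read 9.22 and 9.09 on the ETP arrays against a DN3 mean of 6.73, whereas Il2ra (CD25), Ptcra and Cd3e of the later stage were far lower in ETP than in DN3. The coreceptor genes Cd4 and Cd8a were near or below the median of all values in EILP and ETP. The pools differed in their sex-linked transcripts: Eif2s3y, on the Y chromosome, read 8.56 in EILP and 3.63 and 3.43 in ETP, while Xist read 9.24 in EILP and 11.69 and 11.81 in ETP. Among the others, CLP (8.65) and DN3 (8.15) were high in Eif2s3y and the rest were low, so in the comparison of EILP with ETP the sex makeup of the pools and the population cannot be told apart.

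EILP and ETP differed at 1817 of 22180 genes (8.19% of those tested), 1062 higher in EILP (4.79%) and 755 higher in ETP (3.40%). The counts of list members given below stand beside these shares of all genes. At least a 2-fold difference was reached by 878 and 551 of them. In all 1817 the EILP value lay outside the range of the ETP arrays. The median difference over all genes was -0.06.

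Neutrophil genes differed in nearly every member. Of 36 neutrophil genes, 35 were higher in EILP, with a median difference of 5.03. Camp, a granule peptide, read 12.05 in EILP and 4.79 and 3.86 in ETP, and Ltf (lactoferrin) read 11.65 against 4.23 and 3.80. The exception was Mpo, an enzyme of early granules, which read 10.65 against 9.91 and 9.74 (adjusted p = 0.11). These transcripts were present on every marrow array: the mean level of the list was 9.98 in EILP, between 7.88 and 9.83 on the 12 other marrow arrays, and 5.15 and 5.05 in ETP. In these bulk samples, fewer cells of a type and less RNA per cell cannot be told apart.

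Neutrophil genes and genes that separated marrow from thymus by at least 1 unit were therefore set aside, with sex-linked genes. They comprised the 36 neutrophil genes, 66 marrow-wide genes whose lowest value on the 12 other marrow arrays exceeded the highest of the 4 thymus arrays by at least 1 unit (26 of them neutrophil genes), and 4 sex-linked genes, 80 in all. The marrow-wide rule used the ETP values, so its 66 calls are a description. Left after this were 1738 called genes, 984 higher in EILP and 754 higher in ETP, of which 800 and 550 differed at least 2-fold. A further 280 genes followed the mean of Ltf, Camp and Ngp across the other marrow arrays (r above 0.8), and 194 of these were higher in EILP. Outside that pattern as well lay 790 genes higher in EILP and 753 higher in ETP. With a margin of 0 in the marrow-wide rule, and those 280 genes kept, 1536 called genes were left, 782 higher in EILP and 754 higher in ETP. The 984 thus still hold genes that separated all other marrow arrays from thymus by less than 1 unit.

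**Figure D1:**
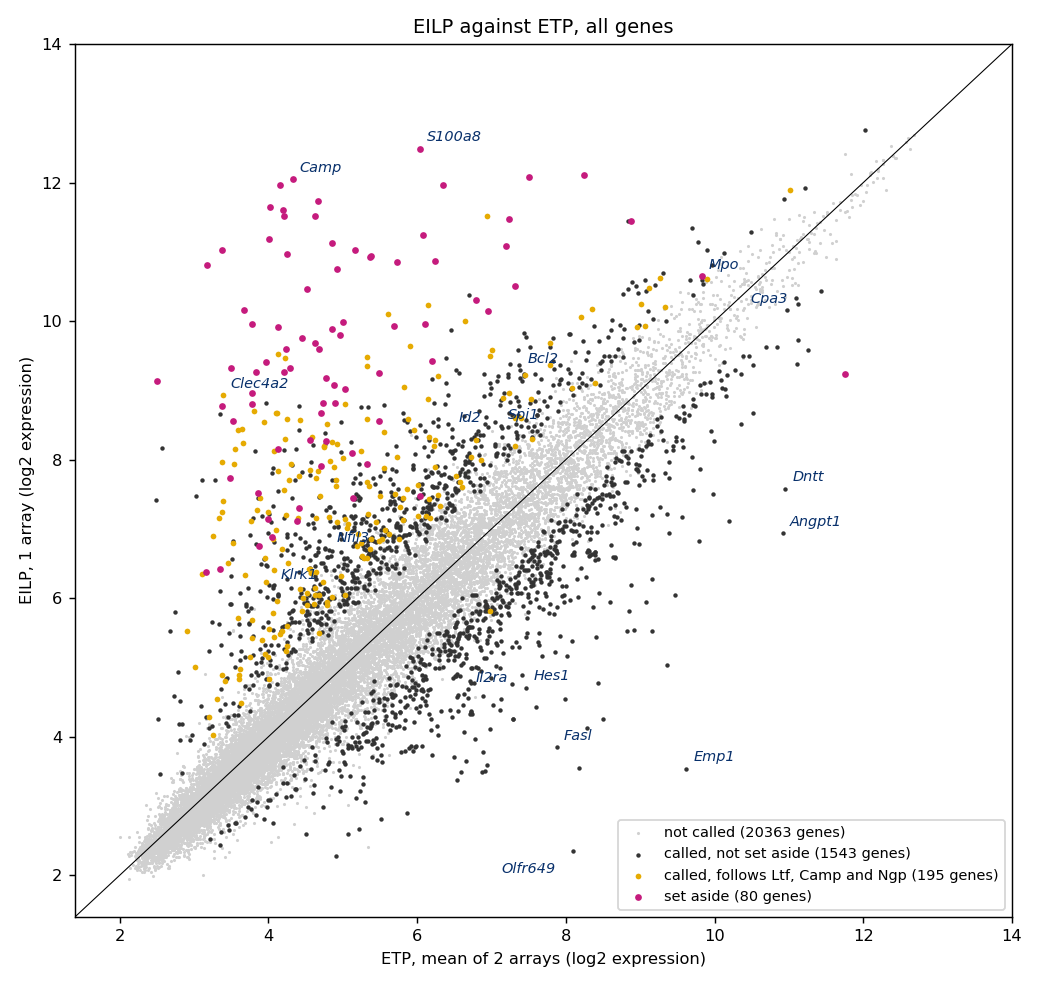
Log2 expression of 22180 genes in EILP (vertical axis, 1 array) against ETP (horizontal axis, mean of 2 arrays), with the line of equal level. Pink marks the 80 genes set aside, yellow the called genes that followed Ltf, Camp and Ngp, black the other called genes and grey the genes not called; the pink and yellow points lie almost wholly above the line.

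The 6 other marrow populations served as a common reference for each side. EILP differed from their mean at 715 genes (3.22% of those tested), 383 higher (1.73%) and 332 lower (1.50%). ETP differed from it at 2532 genes (11.4%), 980 higher (4.42%) and 1552 lower (7.0%). Without ETP replicate 2 this count was 1305, with 458 higher and 847 lower. These comparisons share the EILP or the ETP arrays with the main one and are given beside it as each side's own value. Of the 984 genes higher in EILP, 280 were also called higher in EILP than in other marrow, and in 711 ETP was called lower than other marrow. Of the 754 genes higher in ETP, 432 were called higher in ETP than in other marrow and 198 had EILP called lower. On their low side, 258 of the 984 and 186 of the 754 were below the median of all values.

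For each called gene the mean of every other population was placed on the EILP or the ETP side of the midpoint between both. CLP lay on the EILP side for 91.1% of the 984 genes higher in EILP, against 61.0% of all genes, and NK cells for 63.8%, against 49.3%. LMPP did so for 33.8%, against 45.8%, and DN3 for 28.0%, against 44.8%. For the 754 genes higher in ETP, LMPP lay on the ETP side for 68.8% (54.2% of all genes), HSC for 62.7% (51.5%), DN3 for 60.2% (55.2%) and CLP for 24.3% (39.0%). CLP was thus the population that most often shared the EILP side in both directions. CLP also had the neutrophil list level nearest to that of EILP (9.72 and 9.83), and the part of those transcripts in this likeness was not tested.

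The RNA of Notch1, of some cofactors and of a few Notch targets was higher in ETP, and Notch signalling itself was not measured. Of 15 Notch receptors, ligands and cofactors measured, 4 were higher in ETP and none in EILP. Among all 15, 7 differences were above 0 and 8 below, with a list median of -0.16. Notch1 read 6.05 in EILP and 7.90 and 8.06 in ETP, a 3.80-fold difference (1.93 ± 0.25 log2 units, SE, adjusted p = 0.00022). ETP lay above all 12 other marrow arrays, whose highest was 6.55, and DN3 was higher still at 8.77. The coactivators Maml2 (5.36 against 7.33 and 7.32) and Maml3 (5.87 against 8.33 and 7.44) followed the same order. Mfng, a sugar transferase that tunes the ligand preference of Notch, read 6.01 against 7.94 and 7.03 (adjusted p = 0.031), a call lost without ETP replicate 1 (-1.02, adjusted p = 0.13). The DNA-binding partner Rbpj (EILP minus ETP 0.52), Notch2 (0.51) and the protease Adam10 (0.36) did not pass the test.

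Of 10 Notch target genes, 3 were higher in ETP and 7 were not called, and all 10 differences were below 0 with a median of -0.22. Hes1, a repressor and direct Notch target, read 4.71 in EILP and 7.42 and 7.51 in ETP (6.75-fold, 2.76 ± 0.18, adjusted p = 3.3e-07). EILP was within the range of the other marrow arrays (4.03 to 5.58), and ETP was above all of them and close to DN3 (7.92). Il2ra, the alpha chain of the IL-2 receptor, read 4.69 against 6.91 and 6.47 (3.98-fold, adjusted p = 4.8e-05), while DN3 reached 10.93. For Il2ra the ETP arrays therefore sat between marrow, where the highest array read 4.85, and DN3. Myc, the growth regulator, read 7.49 against 8.64 and 8.44 (2.07-fold, adjusted p = 0.0027), and here it was EILP that lay below all other marrow arrays (7.81 to 9.13). Ptcra, which encodes the pre-T cell receptor alpha chain, read 4.59 in EILP and 4.79 and 4.80 in ETP, against 7.30 in DN3. Nrarp, Dtx1, Notch3, Hes5, Hey1 and Heyl were likewise not called. Against other marrow, 3 of the 10 were called higher in ETP and none lower, Dtx1 among them (0.54, adjusted p = 0.013). Dtx1 read 4.96 and 5.2 in ETP, 4.87 in EILP and at most 4.86 on the other marrow arrays.

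Promoter windows are shown for Il2ra and Ptcra, which parted at the ETP stage: the first was already called higher in ETP and the second was not. Each is the 250 bases before the RefSeq start in GRCm38.p6, from 5′ to 3′ in the direction of the gene, at chr2:11642542-11642791 (plus strand) and chr17:46763713-46763962 (minus strand). Capitals mark the RBPJ motif TGGGAA on the printed strand.
Il2ra: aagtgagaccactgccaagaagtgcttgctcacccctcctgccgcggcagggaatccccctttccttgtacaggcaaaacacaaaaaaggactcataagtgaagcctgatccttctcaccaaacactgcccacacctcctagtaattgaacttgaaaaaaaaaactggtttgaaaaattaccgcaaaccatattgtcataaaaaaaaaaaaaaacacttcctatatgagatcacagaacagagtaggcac
Ptcra: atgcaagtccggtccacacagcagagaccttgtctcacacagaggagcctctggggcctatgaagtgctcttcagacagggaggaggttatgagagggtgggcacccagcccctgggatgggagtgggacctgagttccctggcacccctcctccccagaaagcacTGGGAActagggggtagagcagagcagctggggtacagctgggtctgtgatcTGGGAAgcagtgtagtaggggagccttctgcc
The Ptcra window holds the motif at 84 and 32 bases before the start, and the Il2ra window holds neither TGGGAA nor its reverse TTCCCA. Windows were found for 6 of the 10 Notch targets, and 2 of them, Hes5 and Ptcra, hold TGGGAA on either strand, against 21.6% of 32851 windows of this length. The TCF motif CTTTGA (reverse TCAAAG), which does not overlap with TGGGAA, is in none of the 6 and in 13.8% of all windows. Of the T lineage factors described next, 14 of 16 had windows, 27 in all, and 3 windows hold each motif. These are matches of letters and not binding sites.

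Transcription factors of the T lineage showed a partial difference. Of 15 measured, 4 were higher in ETP and none in EILP, with a list median of -0.45. Besides Hes1 these were Satb1, a chromatin organiser of thymocytes (6.62 against 8.10 and 8.06, adjusted p = 0.00024), Myb (9.50 against 10.43 and 10.50, adjusted p = 0.0026) and the E protein Tcf12 (7.36 against 7.90 and 8.14, adjusted p = 0.035). Tcf12 lost its call without ETP replicate 2 (-0.54, adjusted p = 0.15), and with only EILP and ETP in the fit 2 of the 15 were called. Gata3, required for T cell and ILC development, read 5.10 in EILP and 6.01 and 5.10 in ETP, so 1 ETP array was level with EILP. Bcl11b, the factor of T cell commitment, read 4.77 in EILP and 4.72 on each ETP array, against 8.84 in DN3. Lef1 stayed below 4.8 in both, against 8.80 in DN3. Bcl11b and Lef1 were thus far lower in EILP and in ETP than in DN3. Ikzf1, high in both (8.86 against 8.87 and 9.01), was not called.

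Of 16 genes of the T cell receptor complex and its signalling, 3 were higher in ETP and none in EILP. Against other marrow, 8 of the 16 were called higher and 2 lower in ETP, Cd3g among the 8 (1.14, adjusted p = 0.0024). EILP had 1 called higher and 1 lower than other marrow. Lat, the membrane adaptor of receptor signalling, read 6.78 in EILP and 9.21 and 8.76 in ETP (4.64-fold, adjusted p = 0.0013), and the kinase Fyn 4.99 against 6.81 and 7.41 (4.34-fold, adjusted p = 0.00081). Lat reached 10.72 in DN3, whereas Fyn was lower in DN3 (6.01) than in ETP and highest in NK cells (8.21). Thy1, the T cell surface glycoprotein, read 5.46 against 6.37 and 6.75, a call lost without ETP replicate 2 (-0.92, adjusted p = 0.078). Another adaptor, Lcp2, was not called (8.98 against 9.01 and 9.0). The CD3 chains were not called either: Cd3g read 4.18 against 5.69 and 4.74, Cd3e 3.35 against 3.38 and 4.34, and Cd3d 5.42 against 4.71 and 5.80. DN3 read 11.64 for Cd3g and 10.11 for Cd3e. Without ETP replicate 2, Cd3g was called (-1.52, adjusted p = 0.0054), and without ETP replicate 1, Cd3e was (-1.0, adjusted p = 0.020).

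Lymphoid priming genes, which prepare multipotent progenitors for antigen receptor rearrangement, were lower in EILP. Of 9 measured, 6 were higher in ETP and none in EILP, with a list median of -1.85. Dntt (TdT), which adds bases at rearranged joints, read 7.58 in EILP and 10.92 and 10.98 in ETP (10.3-fold, 3.36 ± 0.34, adjusted p = 2.2e-05). LMPP, CLP and DN3 read 10.69, 10.67 and 11.24, so ETP shared a high level with them, and EILP was near flt3- CMP (7.51). Rag2, part of the recombinase, read 4.25 against 7.74 and 6.83 (8.19-fold, adjusted p = 2.8e-05), with CLP at 7.33 and NK cells at 3.92. EILP was below other marrow as a whole for Rag2 (by 1.29, adjusted p = 0.018). The costimulatory receptor Cd27 read 6.28 against 9.05 and 9.27 (7.35-fold), and the transcription factor Sox4 8.51 against 10.40 and 10.32 (3.61-fold). Flt3, a cytokine receptor of early progenitors, read 6.27 against 7.75 and 8.56, and Il7r, the IL-7 receptor alpha chain, read 6.06 against 7.02 and 7.95. Both lost their call without ETP replicate 2 (-1.48, adjusted p = 0.081 and -0.96, adjusted p = 0.088). Il7r was far higher in CLP (9.71) and DN3 (9.85) than in EILP or ETP. Ccr7 and Ccr9, receptors that guide cells to the thymus, were not called.

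Of 22 stem and multipotent progenitor genes, 10 were higher in ETP and 1 in EILP, with a list median of -0.74, and the stem cell factors Hlf, Mecom, Lmo2 and Gata2 were not called. Angpt1, a ligand made by stem cells, read 6.94 in EILP and 10.97 and 10.86 in ETP (15.8-fold, 3.98 ± 0.22, adjusted p = 7.8e-08). ETP matched HSC (10.83), and EILP was near CLP (6.33) and NK cells (6.96). Cd34, a surface sialomucin of progenitors, read 7.51 against 10.03 and 9.92, Hoxa9 4.35 against 6.69 and 6.77, and Kit 7.20 against 9.22 and 9.09. For Angpt1, Cd34 and Hoxa9 EILP was also called below the mean of the other marrow populations and ETP above it. That mean includes CLP and NK cells, which read 7.43 and 5.91 for Cd34. The ETP mean for Cd34 (9.98) was below LMPP (10.12), flt3+ CMP (10.17) and flt3- CMP (10.56). For Hoxa9 the ETP mean (6.73) was near that of LMPP (6.8). Bcl11a, Mef2c, Erg, Mycn, Hoxa7 and Lyl1, all transcription factors of early progenitors, differed by between 1.96 and 1.01 log2 units. Calls were lost for Mycn without ETP replicate 2 (-0.99, adjusted p = 0.082), for Hoxa7 without replicate 1 (-0.98, adjusted p = 0.052) and for Lyl1 without either (-0.99, adjusted p = 0.097 without replicate 1). With only EILP and ETP in the fit, 7 members were called higher in ETP and none in EILP.

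The member higher in EILP was Spi1 (PU.1), a myeloid and early lymphoid factor, which read 8.48 against 6.90 and 7.35 (2.56-fold, adjusted p = 0.0015). EILP was above all 12 other marrow arrays, whose highest was 7.94. Spi1 was not among the 280 genes that followed Ltf, Camp and Ngp, but any part of neutrophil transcripts in its level was not tested.

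**Figure D2:**
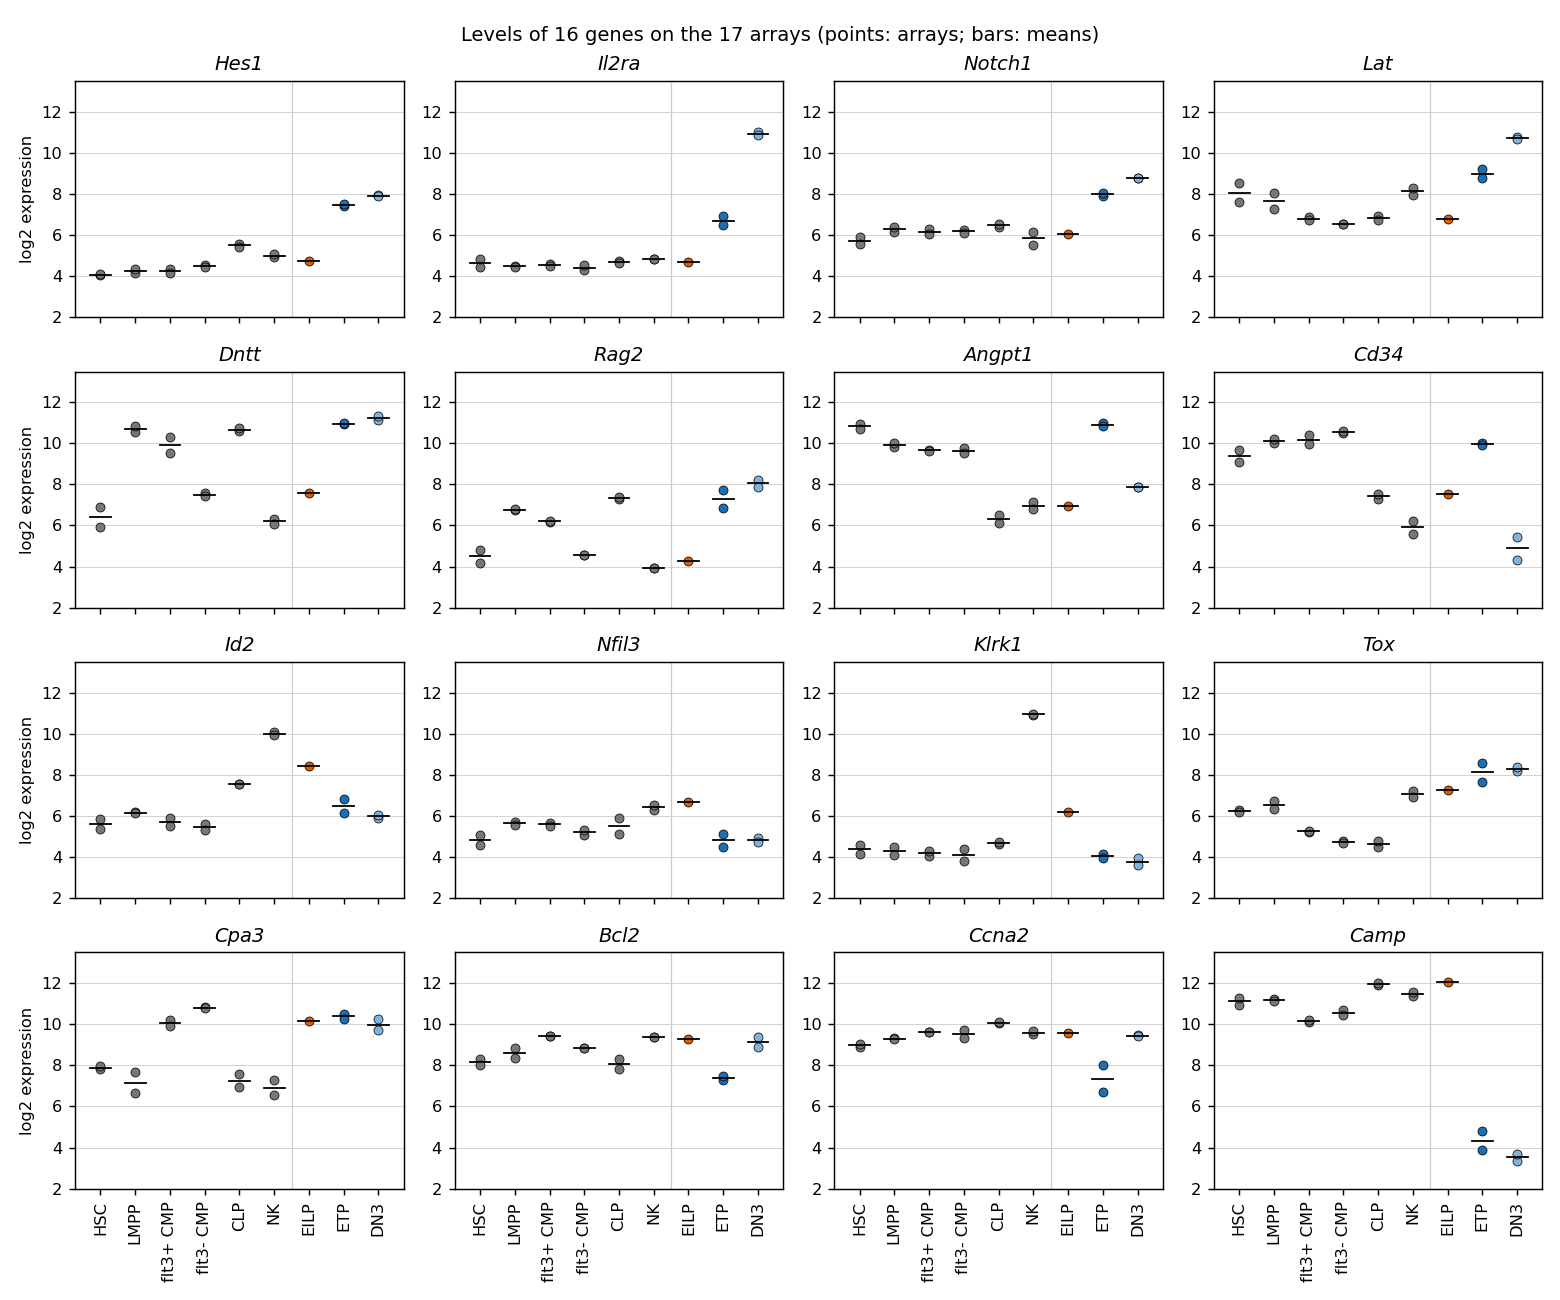
Log2 expression (vertical axes) of 16 genes on the 17 arrays, by population; points are arrays and bars are means, EILP in orange with 1 point, ETP dark blue and DN3 light blue. Hes1 and Notch1 are high on the thymus arrays alone, Dntt and Rag2 are low in EILP and high in ETP, LMPP, CLP and DN3, and Id2 and Nfil3 are high in EILP and NK cells.

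Innate lymphoid transcription factors did not move as a group, and the list median was 0.08. Of 14 measured, 3 were higher in EILP and 1 in ETP. The balance depended on the ETP arrays: without replicate 1 it was 2 and 3, with Ahr (-1.31, adjusted p = 0.0063) and Maf (-2.66, adjusted p = 0.0345) called higher in ETP, and without replicate 2 it was 2 and 2. Id2, the inhibitor of E proteins, read 8.44 in EILP and 6.12 and 6.81 in ETP (3.92-fold, 1.97 ± 0.28, adjusted p = 0.00045). Of the other populations only NK cells (9.99) had a higher mean than EILP, and CLP (7.57) was the next below it. EILP was also called above other marrow (1.69, adjusted p = 0.0017). Nfil3, which acts upstream of Id2 in NK and ILC development, read 6.70 against 4.50 and 5.14 (3.68-fold, adjusted p = 0.0022), above all other marrow arrays (4.57 to 6.54). Zbtb16 (PLZF), a marker of ILC precursors, read 6.26 against 5.07 and 4.85 (2.47-fold, adjusted p = 0.034). Its call was lost without either ETP replicate (1.41, adjusted p = 0.052 without replicate 1 and 1.19, adjusted p = 0.12 without replicate 2), and it was not called against other marrow (adjusted p = 0.15). None of the 3 was among the genes that followed Ltf, Camp and Ngp, but any part of neutrophil transcripts in their levels was not tested.

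Tox, needed for early ILC progenitors and for thymocytes, was raised on both sides. It read 7.25 in EILP and 8.60 and 7.66 in ETP, a difference of -0.88 ± 0.31 (adjusted p = 0.11). EILP was called above other marrow by 1.51 (adjusted p = 0.0066) and ETP by 2.38 (adjusted p = 2.1e-06). Without ETP replicate 2 the difference was called (-1.35, adjusted p = 0.0052). Ikzf2 (Helios) was the member higher in ETP, 8.29 and 8.36 against 6.63 (3.26-fold, adjusted p = 0.00073), and DN3 was level with ETP at 8.31. Eomes and Tbx21, factors of mature NK cells, were at 3.89 and 4.52 in EILP against 8.96 and 6.74 in NK cells and were not called. Among the 7 ID and E protein genes, Id2 was higher in EILP and Tcf12 in ETP.

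Of 17 receptors and surface proteins of innate lymphoid cells, 1 was higher in EILP and 2 in ETP (1 without ETP replicate 1), beside 4.79% and 3.40% of all genes. Il18r1, the IL-18 receptor, read 7.28 in EILP and 5.70 and 6.0 in ETP (2.69-fold, adjusted p = 0.00027). EILP was above the mean of other marrow by 1.26 (adjusted p = 0.00086), but NK cells were higher still at 9.57, and CLP read 6.78. Il1r1, the IL-1 receptor, read 6.05 against 9.29 and 9.64 (10.6-fold, adjusted p = 4.9e-05), with LMPP at 9.18 and DN3 at 4.46. Il17rb, the IL-25 receptor chain known from type 2 innate cells, read 6.18 against 7.42 and 7.64, and its call was lost without replicate 1 (-1.47, adjusted p = 0.057) and without replicate 2 (-1.24, adjusted p = 0.13). Itga4 and Itgb7, which form the integrin by which these progenitors are recognised, were not called (9.55 against 9.53 and 9.75, and 6.11 against 5.69 and 5.43). Of 11 genes of common gamma chain cytokine signalling, Il2ra alone was called. Il2rb, which is part of the IL-2 and IL-15 receptors, read 4.92 against 4.0 and 4.05 (adjusted p = 0.057) and passed with arrays centred on their medians (0.91, adjusted p = 0.047).

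NK cell and cytotoxic genes moved in both directions. Of 26 measured, 6 were higher in EILP and 3 in ETP, with a list median of 0.25. Klrk1 (NKG2D) read 6.17 in EILP and 4.16 and 3.96 in ETP (4.33-fold, adjusted p = 0.00019), the chemokine Xcl1 7.09 against 5.45 and 5.03 (3.60-fold, adjusted p = 0.0062), and Klrb1f, a lectin-like receptor, 7.40 against 5.60 and 5.66 (3.41-fold, adjusted p = 0.00060). All were far below NK cells, at 10.95, 11.81 and 9.61, and above the means of the other marrow progenitors. Ncr1 (5.67 against 4.79 and 4.55), Ccl5 (9.23 against 7.10 and 8.07) and the adaptor Tyrobp completed the group. Calls were lost for Ncr1 without ETP replicate 2 (0.88, adjusted p = 0.089), for Ccl5 without replicate 1 (1.16, adjusted p = 0.18) and for Tyrobp without either (0.78 and 0.87, adjusted p = 0.12 and 0.098), and with only EILP and ETP in the fit 3 members were called higher in EILP and 2 in ETP. The mean level of the list was 5.58 in EILP, 5.49 and 5.46 in ETP, and 9.22 and 9.34 in NK cells, so the list means of EILP and ETP lay close together and far below NK cells.

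The members higher in ETP were Fasl, Cd7 and Nkg7. Fasl, the death ligand of cytotoxic cells, read 3.85 in EILP and 7.77 and 7.98 in ETP (16.2-fold, 4.02 ± 0.18, adjusted p = 9.1e-09). ETP was level with NK cells (7.93), while each of the 7 other population means, EILP included, was dim. Cd7, a surface protein of early lymphoid cells, read 6.55 against 8.04 and 8.73 (3.57-fold), with ETP between NK cells (9.78) and the other marrow progenitors. Nkg7 lost its call without replicate 1 (-0.84, adjusted p = 0.056) and without replicate 2 (-0.66, adjusted p = 0.17).

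Of 16 homing and adhesion genes, 5 were higher in EILP and none in ETP, beside 4.79% and 3.40% of all genes. Ccr2, a chemokine receptor by which marrow cells enter the blood, read 9.02 in EILP and 4.46 and 5.60 in ETP (15.9-fold). It is among the marrow-wide genes set aside, with the 12 other marrow arrays at 6.64 to 9.73, so its difference is a description. The integrin chain Itgb2 read 9.05 against 5.82 and 5.82 (9.41-fold), and it was among the genes that followed Ltf, Camp and Ngp. Cx3cr1 (7.94 against 6.36 and 6.93), Cxcr4, which retains cells in marrow (9.56 against 8.41 and 8.19), and Cd44 (8.05 against 7.14 and 6.98) differed by 0.99 to 1.30 log2 units. Cd44 lost its call without ETP replicate 2 (0.91, adjusted p = 0.11). With only EILP and ETP in the fit, 2 of the 16 were called.

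Among the 15 genes with the largest differences in favour of ETP, the populations that shared the high level varied from gene to gene. Emp1, a membrane protein, read 3.54 in EILP and 9.63 and 9.61 in ETP (67.7-fold, 6.08 ± 0.65, adjusted p = 3.7e-05). LMPP stood at 9.21 and DN3 at 8.11, so EILP was at the level of flt3- CMP (4.14) and NK cells (4.11). Tmem108 read 5.04 against 9.06 and 9.65 (20.0-fold), with DN3 at 9.14. Rgs1, which dampens chemokine receptor signalling, read 4.25 against 8.01 and 8.98 (19.0-fold), and Lax1, a transmembrane adaptor of lymphocytes, 4.13 against 8.30 and 8.28 (17.8-fold). Rgs1 was low in DN3 (4.28) and CLP (4.56) and higher in HSC (7.04) and NK cells (7.40). Tsc22d1 read 5.52 against 8.83 and 9.48 (12.4-fold) and was high on the thymus arrays alone, with DN3 at 8.49 and the highest other marrow array at 6.35. Arpp21, a thymocyte RNA-binding protein, read 3.51 against 7.02 and 6.80 (10.6-fold) and stood at 8.65 in DN3. Ctla2b, Phxr4, Zfp760 and Zfp975 completed the 15 largest with Angpt1, Fasl, Il1r1, Dntt and Olfr649. The call of Zfp975 was lost without ETP replicate 1 (-2.72, adjusted p = 0.099).

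Olfr649, annotated as an odorant receptor, read 2.35 in EILP and 8.28 and 7.92 in ETP (53.8-fold, 5.75 ± 0.20, adjusted p = 1.8e-09). On the 15 arrays other than ETP it never exceeded 2.76. Its neighbours in RefSeq order on chromosome 7 were examined after this value was seen. Genes not measured here are left out of that order. Olfr648, Olfm5 and Ubqlnl, which follow each other next to it in that order, were all called higher in ETP than in EILP and than in other marrow. Olfr648 read 5.71 and 6.02 in ETP and at most 2.97 elsewhere, Olfm5, of the olfactomedin family, 8.47 and 8.35 against at most 6.37, and the ubiquilin-like gene Ubqlnl 7.16 and 5.92 against at most 3.83. Beyond Ubqlnl, Ubqln5 (4.77 and 4.22 against at most 3.97) and Olfr646 (5.33 and 5.02 against at most 4.85) also had both ETP arrays above the 15 others but were not called against EILP. Ubqln5 passed without ETP replicate 2 (-0.97, adjusted p = 0.010). On the other side of Olfr649, Trim6 (4.17 and 3.92, others at most 4.33) did not stand out. Further along that side, genes were picked out after their values were seen. Trim34a was narrowly above the 15 others (9.52 and 9.58 against at most 9.48) but not called against EILP. Gm15133 was again above the 15 others (6.87 and 7.05 against at most 6.52) and called higher in ETP (adjusted p = 0.036). Trim12c and Trim30b were called higher in EILP (7.18 against 4.62 and 5.42, and 7.19 against 3.37 and 4.47). A run of 4 genes, consecutive among those measured, was thus high in ETP and not in DN3, the later thymocyte stage. Members of such gene families are alike in sequence, and whether their probe sets tell them apart was not tested.

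**Figure D3:**
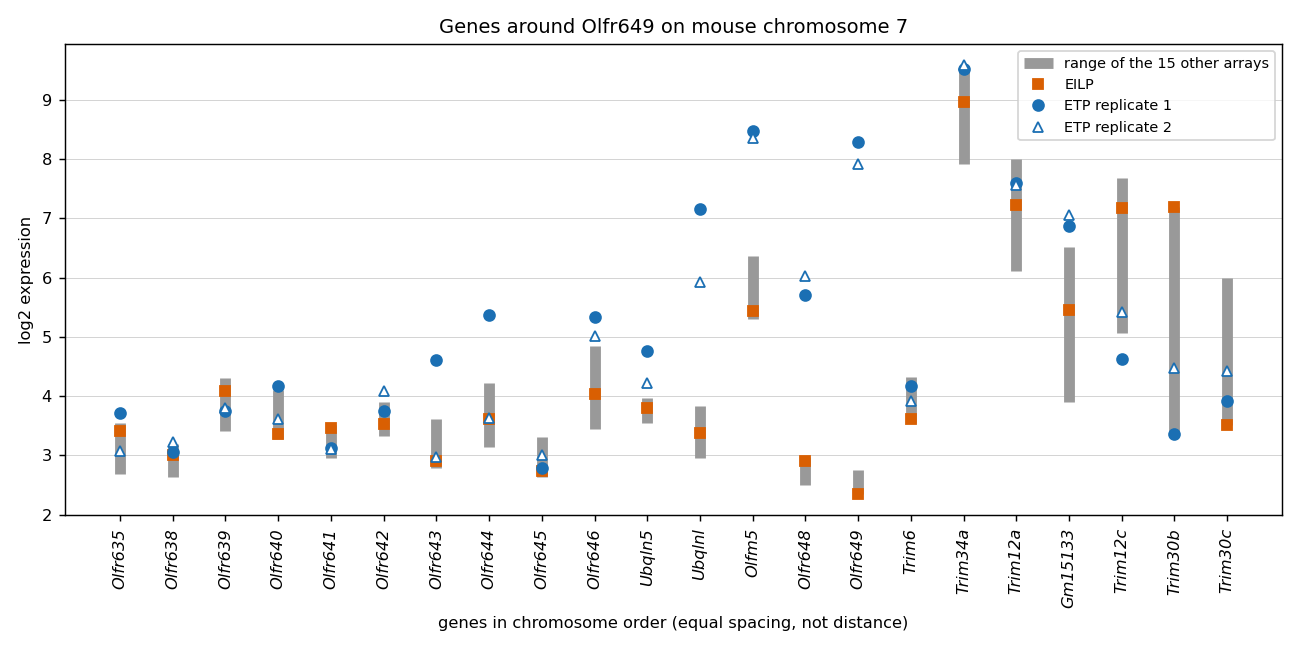
Log2 expression (vertical axis) of 22 measured genes around Olfr649 in RefSeq chromosome order (horizontal axis, equal spacing). Blue symbols are the 2 ETP arrays, orange squares the EILP array and grey bars the range of the 15 arrays other than ETP; from Ubqlnl to Olfr649 both ETP arrays lie above the grey bars.

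The 250 bases before the RefSeq starts of Olfm5 and Olfr649 (GRCm38.p6, minus strand, chr7:104164817-104165066 and chr7:104190206-104190455) are shown because these genes had the highest ETP levels of the run.
Olfm5: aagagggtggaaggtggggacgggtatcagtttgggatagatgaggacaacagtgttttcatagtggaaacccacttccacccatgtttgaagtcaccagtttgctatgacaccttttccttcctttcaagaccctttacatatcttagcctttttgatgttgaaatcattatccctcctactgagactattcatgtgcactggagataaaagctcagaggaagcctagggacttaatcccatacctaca
Olfr649: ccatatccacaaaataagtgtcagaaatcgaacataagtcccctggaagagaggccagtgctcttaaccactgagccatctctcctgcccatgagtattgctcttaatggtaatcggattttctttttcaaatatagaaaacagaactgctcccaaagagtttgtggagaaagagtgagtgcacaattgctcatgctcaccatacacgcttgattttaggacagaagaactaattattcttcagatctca
Neither window holds TGGGAA or CTTTGA on either strand, which says only that these letters are not in these windows, and no capitals are used.

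The 15 largest differences in favour of EILP, after the set-aside genes, were led by genes of myeloid cells. Clec4a2, a lectin receptor of myeloid cells, read 8.93 in EILP and 2.85 and 3.93 in ETP (46.6-fold, 5.54 ± 0.42, adjusted p = 1.7e-06). Scrg1 (42.1-fold), the cystatin family genes Stfa1 and Stfa3, Slfn4, Clec4a1, Gpr141, the chemokine Ccl6, Slco4c1, the cytokines Il1f9 and Il1b, Abca13, Clec5a, the RNA sensor Tlr13 and the inhibitory receptor Lilrb4a made up the rest, down to 23.7-fold. CLP was next to EILP at these genes, with Clec4a2 at 8.28, Slfn4 at 9.32 and Il1b at 8.60. Most of them followed the levels of Ltf, Camp and Ngp across marrow; Stfa1, Stfa3 and Gpr141 did not pass that correlation. EILP also had the highest neutrophil list mean of all 17 arrays, and its part in these differences was not tested.

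Other myeloid and erythroid lists differed in the same direction. Of 19 monocyte and macrophage genes, 11 were higher in EILP and none in ETP, Ly6c2 (11.74 against 4.48 and 4.86) and Cd68 (9.25 against 6.85 and 6.28) among them, while the macrophage complement gene C1qa (5.31 against 4.94 and 5.42), Cd5l and Timd4 were not called. Of 13 red cell and megakaryocyte genes, 6 were higher in EILP, led by Car1, a carbonic anhydrase of red cell precursors (11.24 against 6.42 and 5.74), and Rhag (8.43 against 4.87 and 3.94). Ly6c2 and Car1 belong to the marrow-wide genes set aside above, and so does F13a1 of the monocyte list (8.96 against 3.37 and 4.2). The counts of these lists include such genes. The mean red cell list level was 7.23 in EILP, 6.08 to 7.19 on the other marrow arrays and 5.62 and 5.50 in ETP. Of 15 mast cell and basophil genes, 5 were higher in EILP, led by Alox5 (8.68 against 4.48 and 4.93) and the histidine decarboxylase Hdc (7.44 against 3.51 and 4.22). Alox5 is also among the marrow-wide genes set aside. Without ETP replicate 2, 2 of the 15 were called. Cpa3, a mast cell protease, was high in both (10.16 against 10.52 and 10.25, difference -0.22 ± 0.41, adjusted p = 0.85), and it was also at this height in flt3- CMP (10.82), flt3+ CMP (10.06) and DN3 (9.99). CLP, LMPP, HSC and NK cells read 7.26, 7.15, 7.88 and 6.91. Against the mean of other marrow Cpa3 was called higher on each side, by 1.81 in EILP and 2.03 in ETP.

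Dendritic, B cell and stromal markers gave few calls. Irf8, a factor of dendritic and monocyte progenitors, was the single call among 13 dendritic cell genes (9.23 against 6.61 and 7.19), and H2-Aa led 2 calls among 6 MHC class II genes (6.71 against 4.44 and 5.07), 1 without ETP replicate 2. Among 15 B lineage genes, Cd79b was called, and it was higher in ETP (6.26 and 6.58 against 5.18). Here EILP lay below all other marrow arrays (6.06 to 8.11), and both ETP arrays lay within their range. Ebf1 and Pax5, which define B lineage cells, were not called. Among 12 mature B and plasma cell markers, Jchain was called (6.35 against 2.98 and 3.23), and CLP was high as well (7.0). Of 9 later thymocyte markers, Slfn1 was higher in EILP (9.48 against 5.13 and 5.51) and Arpp21 in ETP, and Cd8a was called higher in ETP without ETP replicate 1 (-0.88, adjusted p = 0.018). Of 12 stromal and endothelial markers, Pdgfrb, a growth factor receptor of mesenchymal cells, was higher in ETP (8.41 and 7.75 against 5.38, adjusted p = 2.1e-05), and so was Pecam1 (8.24 and 8.35 against 7.32). The collagen genes and the endothelial genes Cdh5 and Kdr were not called. Ly75 was the single call among 11 thymic epithelial markers, and it was higher in EILP, whereas Foxn1, Psmb11 and Prss16, which define thymic epithelium, were not called.

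**Figure D4:**
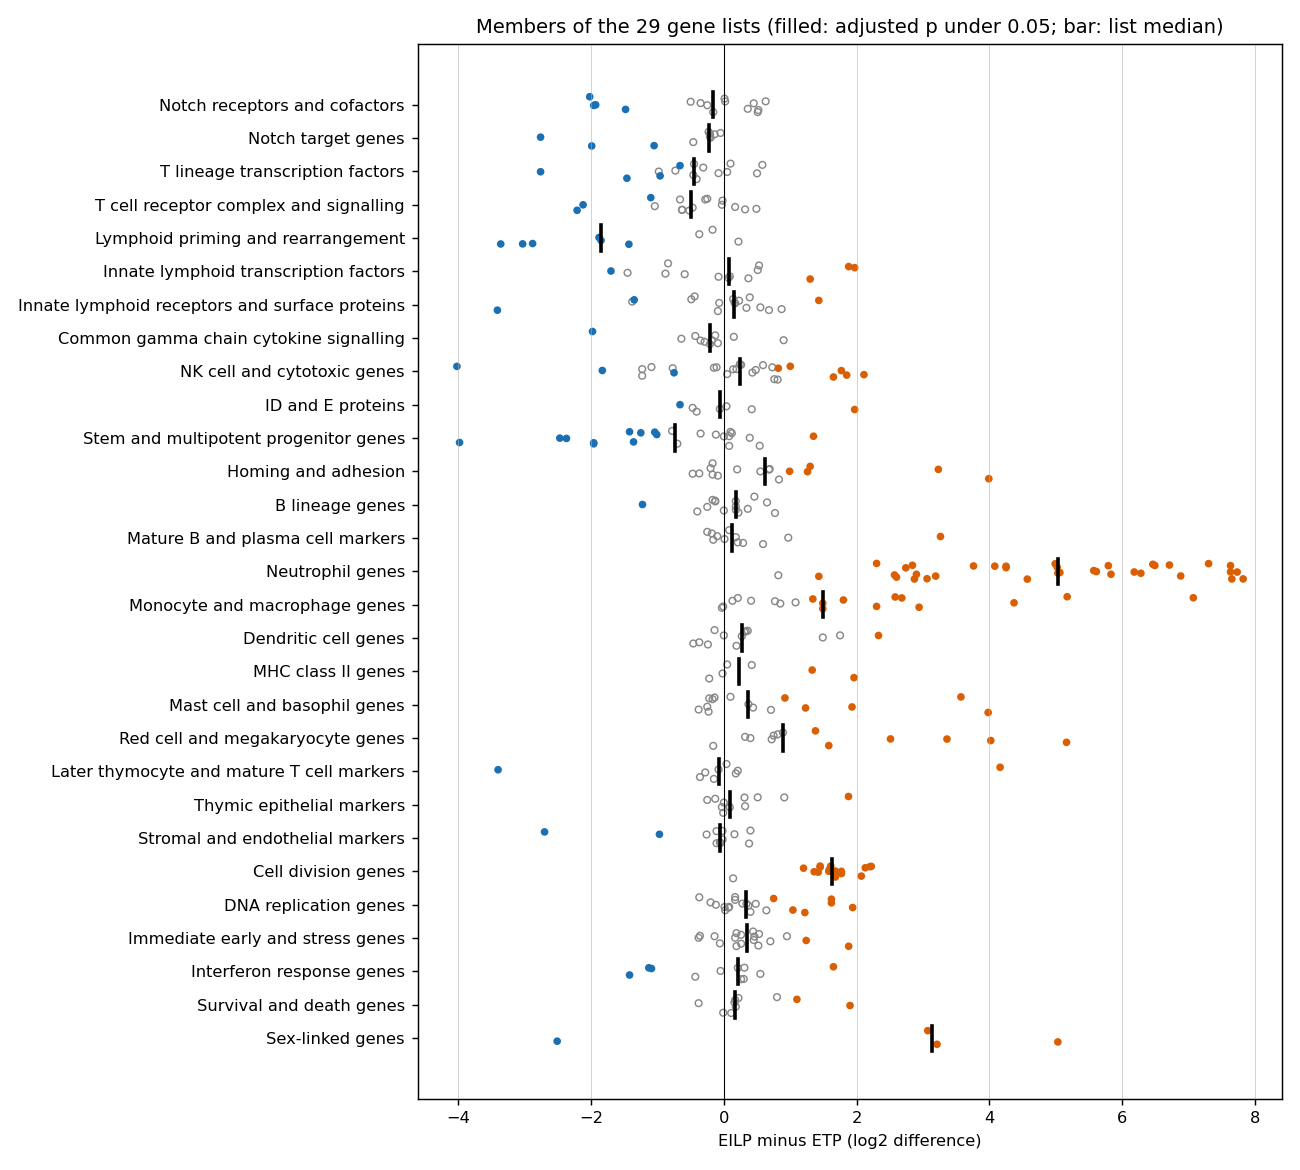
EILP minus ETP (horizontal axis, log2 difference) for the measured members of 29 gene lists; filled points passed the test, orange higher in EILP and blue higher in ETP, open points did not, and black bars are list medians. Neutrophil and cell division genes lie to the right almost without exception, lymphoid priming genes lie to the left, and most other lists are centred near 0 with single members far out.

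Cell division genes were lower in ETP than in EILP, and their mean level was lower on the ETP arrays than on the 15 others. Of 18 measured, 17 were higher in EILP, with a median difference of 1.63, the exception being Kif20a (6.52 against 6.61 and 6.14). Ccna2, the cyclin of DNA synthesis and mitotic entry, read 9.58 in EILP and 8.01 and 6.69 in ETP (4.67-fold, adjusted p = 0.0014), and Mki67, the proliferation antigen, 10.56 against 8.95 and 8.82 (3.20-fold, adjusted p = 3.6e-05). The mean level of the list was 6.97 and 6.94 in ETP, 8.56 in EILP, 8.04 to 9.09 on the other marrow arrays and 8.58 and 8.69 in DN3. Against other marrow, none of the 18 was called in EILP (limma, 1 at an unadjusted p under 0.05) and all 18 were called lower in ETP. The difference between EILP and ETP at these genes was thus one of the ETP arrays. With only EILP and ETP in the fit, 11 of the 18 were called. Of 21 DNA replication genes, 6 were higher in EILP, led by the ribonucleotide reductase subunit Rrm1 (9.76 against 7.80 and 7.84), while the helicase subunits Mcm2 to Mcm7 were not called. With only EILP and ETP in the fit, 3 of these 21 were called.

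Of 10 survival and death genes, Bcl2, which guards against cell death, was higher in EILP (9.29 against 7.27 and 7.50, 3.75-fold, adjusted p = 0.00035), with other marrow at 7.83 to 9.42 and DN3 at 9.15. Bak1 was the other call, lost without ETP replicate 1 (1.0, adjusted p = 0.10) and without replicate 2 (1.21, adjusted p = 0.061). Of 18 immediate early and stress genes, Hspa1a, a heat shock protein (6.42 against 4.40 and 4.68), and Btg2 were called, Btg2 not without ETP replicate 1 (0.82, adjusted p = 0.20). Hspa1a was higher still in CLP (7.88), and Hspa1b was not called (6.99 against 6.52 and 6.55). Of 11 interferon response genes, Zbp1 was higher in EILP and Usp18, Rtp4 and Xaf1 in ETP. Usp18, which restrains interferon signalling, read 7.07 and 7.11 in ETP and 5.67 in EILP. Calls were lost for Zbp1 without ETP replicate 1 (1.25, adjusted p = 0.14), for Rtp4 without replicate 2 (-0.97, adjusted p = 0.10) and for Xaf1 without either (-1.17 and -1.02, adjusted p = 0.064 and 0.13), so the interferon list rested on few genes.

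**Figure D5:**
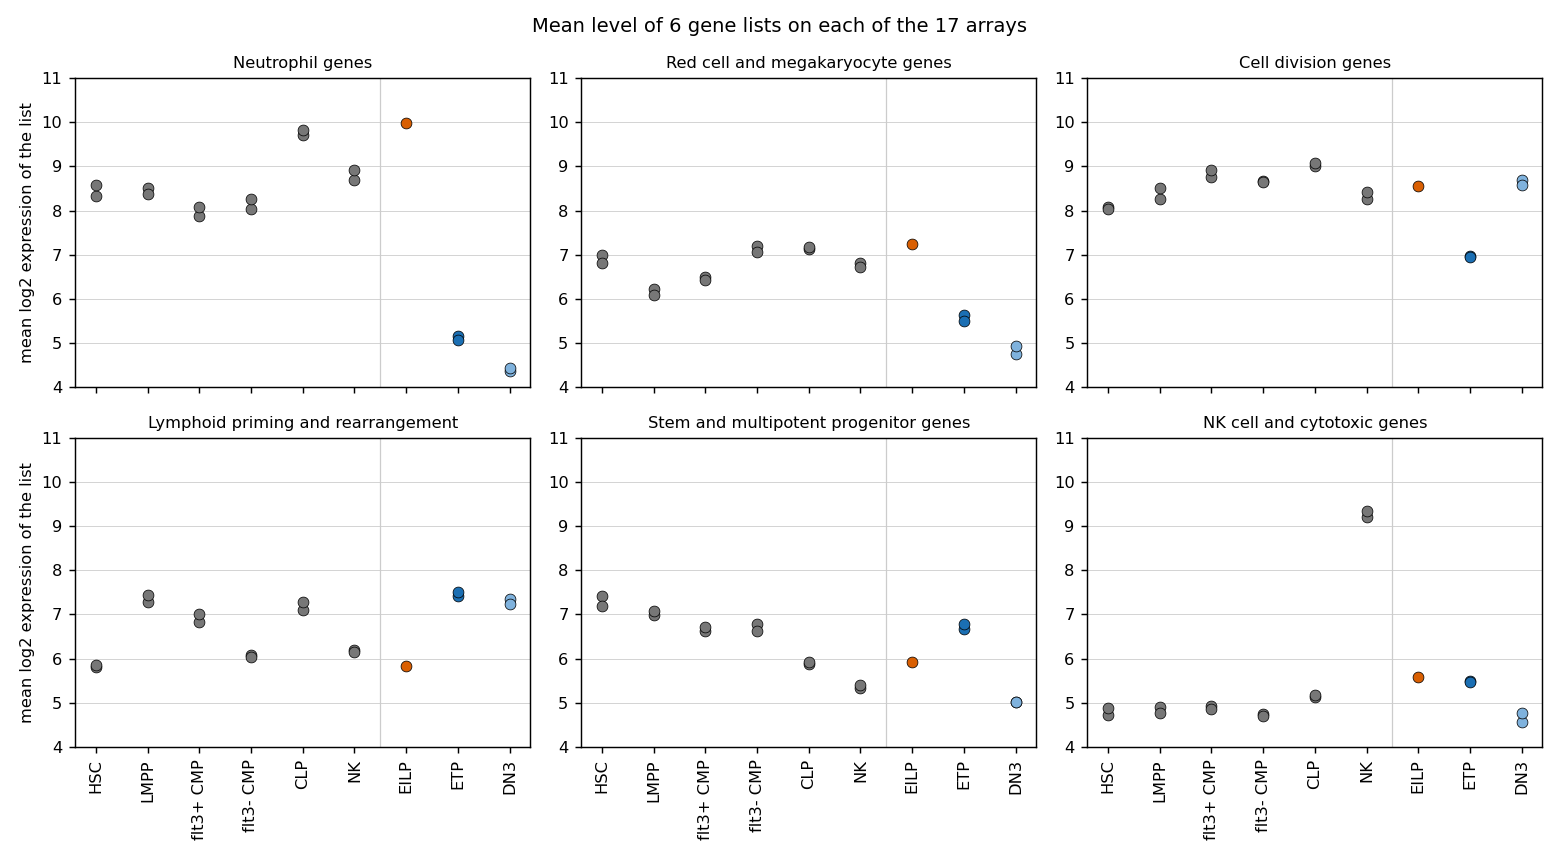
Mean log2 expression (vertical axes) of 6 gene lists on each of the 17 arrays, by population; each point is 1 array, EILP in orange, ETP dark blue and DN3 light blue. ETP is low in neutrophil and red cell genes as DN3 is, and lowest of all in cell division genes, while EILP is highest in neutrophil genes and low in lymphoid priming genes.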

How the data were processed

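Expression was measured by hybridization to the Affymetrix Mouse Gene 2.0 ST array. Per the labels' protocols, Trizol was used for extraction, NuGEN Pico V2 for amplification and biotin as the label. The authors deposited log2 expression per probe set, a unit read from the numbers themselves. Affymetrix Expression Console was used, per the submitters' processing notes; its version, algorithm and normalization were not given in the sources used here. Of 41345 probe sets, the 23521 with 1 gene symbol were kept (1814 had several and 16010 none), and of 1082 genes with several probe sets the highest mean was used.

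limma 3.58.1 in R 4.3.3 (lmFit, eBayes) was fitted with 1 mean per population over all 17 arrays (8 residual and 5.33 prior degrees of freedom), two-sided, adjusted by Benjamini-Hochberg over 22180 genes in each of 3 comparisons. No low-value filter was applied. Precision is limited by how few arrays there are. In simulated data for EILP minus ETP with 22180 genes, 49% of 100 genes changed by 1 log2 unit and 99% of 100 changed by 2 were called, with 14 false calls. The noise was independent and normal with each gene's fitted variance, and EILP was given the same spread as the other populations. The changed genes were fewer than those called in the real data, so the figures hold for that setting only.

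Named were the 15 largest called differences of at least 2-fold in each direction with EILP outside the ETP range, the 8 largest also called against other marrow on that side, and list members, leaving out set-aside and predicted genes, small RNA genes, pseudogenes and receptor segments in the first parts. The neighbours of Olfr649 were added after its value was seen. The members and the 29 lists (409 of 448 list genes measured) were chosen with earlier results of these data known. Replicate numbers do not reach EILP, so no block was used; same-numbered arrays of different populations deviated together at r between -0.07 and 0.09, with none of 28 pairs of populations above 0.1. Alternatives covered scaling, dim genes, probe set choice, arrays in the fit, the variance model, the set-aside rule and each ETP array left out. Promoter windows are from RefSeq, GRCm38.p6. Other motifs and genomic sequence were not used here.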

Additional observations from a re-analysis of the deposited data

How the results depend on the processing

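No named gene's difference changed sign with a call, and in all settings more genes were called higher in EILP than in ETP; the balance of the innate lymphoid transcription factors, 3 higher in EILP and 1 in ETP, became 2 and 3 without ETP replicate 1. With only the EILP and ETP arrays in the fit, 855 genes were called, 589 higher in EILP and 266 higher in ETP (777, 512 and 265 without the set-aside genes), from a fit with fewer samples; 828 of the 855 were among the 1817. The other settings with both ETP arrays called between 1371 and 2001 genes, and quantile normalization moved the share higher in EILP from 58.4% to 53.2%, the 2-population fit to 68.9%. Without one ETP array in turn the calls were 1474 to 1955 (869 to 1052 higher in EILP, 605 to 903 higher in ETP), and without set-aside genes 1395 to 1876 (791 to 974 and 604 to 902). For ETP against other marrow they were 1305 to 2348 (458 to 1098 higher, 847 to 1250 lower), the lower counts being those without replicate 2. No paired analysis was possible for EILP minus ETP because EILP has 1 array without a replicate number; for ETP against other marrow, the fit with a replicate block and without the EILP array called 2537 genes, against 2532, and changed no direction. Of 181 called named genes, 39 lost their call in the 2-population fit, 16 without ETP replicate 1, 23 without ETP replicate 2, and 17 with EILP, CLP, ETP and DN3 alone. The 1 EILP array could not be left out.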
